A study of Homo sapiens with 4 samples.

Results

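The genes examined here encode the nuclear pore and the receptors that carry cargo through it. They were taken from the peak table of a YTHDF1 RNA immunoprecipitation sequencing (RIP-seq) experiment by their symbols, as the protein-coding genes whose symbol begins with NUP, IPO or TNPO and a number, with XPO, or with KPNA and a number, together with KPNB1, NXF1, RANBP2, TPR and RAN. Of 51 protein-coding genes in the RefSeq annotation with such symbols, 36 had at least 1 window in the table, among 6679 protein-coding genes and 7550 genes in all. These 36 genes held 122 of the 26819 distinct windows. The choice used symbols alone and no measured value, but it was made with earlier results of these data known.

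The cells were SNU638, an established human gastric cancer line, in which YTHDF1 was overexpressed. All cultures went without serum for 24 h and received 10 ng/ml interferon-γ (IFN-γ) for 24 h, and each of the 4 libraries came from such cells. The 2 IP-YTHDF1 libraries hold RNA pulled down with YTHDF1, per the methods through an antibody to a FLAG tag on the overexpressed protein, and the 2 Input libraries hold total RNA. No library of untreated cells, of cells without overexpressed YTHDF1 or of a control precipitation was analysed here, so the windows describe the tagged protein at its overexpressed level under IFN-γ and no change with treatment.

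Each row of the authors' deposited table is a window of 50 bp, scored once for the whole experiment by a signal value and a p-value, with a q-value beside them. The signal value is a score whose scale the table does not state, with a higher value for a stronger window. No value belongs to a single library. Depth and the spread between replicates are therefore unknown, and differences between genes below are differences between deposited values that could not be set against replicate error. Of the markers chosen to check the cell type, 4 of 5 epithelial genes had a window (EPCAM, KRT8, KRT18 and KRT19, but not CDH1), as did 1 of 4 leukocyte genes (ITGAM), 0 of 3 fibroblast genes and 0 of 3 endothelial genes.

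YTHDF1 is a cytoplasmic protein that binds mRNA carrying N6-methyladenosine (m6A). Roles in promoting translation and in promoting degradation of such mRNA have both been reported. The authors of these data propose that YTHDF1 lowers the stability of IRF1 mRNA. The nuclear pore is a ring-shaped channel built from nucleoporins, with an outer and an inner ring as scaffold, a central channel filled with flexible repeats, filaments on the cytoplasmic side and a basket on the nuclear side. Importins carry proteins in and exportins carry proteins or RNA out, both under control of the small GTPase RAN, whereas bulk mRNA leaves through NXF1.

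In 5 members the bases just after an annotated transcription start lay inside a listed window. IPO9 is left out because only 7 bases were covered, and the other 4 are shown to let the reader see the RNA that was scored near the 5′ end of these genes. They were read 5′ to 3′ on the strand of the gene from the RefSeq start table (GRCh38.p14), which reaches 50 bases past 1 annotated start of each gene, and GGAC, the core of the common m6A motif, is in capitals.
IPO7 (chr11:9384672-9384701, plus strand, bases 21 to 50): tgcggagcgcggcgggtccatgtgcgcagt
KPNA2 (chr17:68035759-68035784, plus strand, bases 25 to 50): gtGGACcctttgaacgcagtcgccct
NUP160 (chr11:47848301-47848330, minus strand, bases 21 to 50): gacggcgggaagatggcggcggcgggagcc
NUP42 (chr7:23182068-23182097, plus strand, bases 21 to 50): gtcagcgacgccgtcgcaatggccatttgt
GGAC occurred in the KPNA2 stretch and not in the IPO7, NUP160 or NUP42 stretches. Over 27305 annotated starts, 12% held GGAC on the transcript strand in bases 21 to 50 and 10.3% held it in the last 26 bases. These starts, 1 per symbol, were not limited to protein-coding genes, whereas the 4 stretches are all from such genes. Its reverse complement, GTCC, occurred in the IPO7 stretch and in 10.6% of all starts. The stretch was 80.0% G and C in NUP160, 73.3% in IPO7, 61.5% in KPNA2 and 60.0% in NUP42, and the median of all starts was 60% with quartiles at 50% and 70%. A match or its absence describes these letters alone, and the rest of each window was not read.

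The share of transport genes with a listed window was 70.6% (36 of 51), and over the 20056 protein-coding genes of the annotation it was 31.8%. The latter counts the 6370 of 6674 listed protein-coding symbols that matched the annotation. All 36 transport genes matched, so the shares over all genes may be slightly low. Where the q-value had to be 0.001 or less, the shares were 54.9% (28 genes) and 21.2%. With a signal value of at least 2 they were 52.9% (27 genes) and 22.0%. The strictest rule adjusted the p-values by Bonferroni's method over the 310017 windows counted in all listed genes, and left 35.3% of the transport genes (18 genes) and 12.5% of all protein-coding genes. The share was thus above that of all genes under each of the 4 rules. The listed transport genes had a median of 35 tested windows, the same as all listed protein-coding genes. That number is known only for genes with a listed window, so it does not bear on the shares, which also count genes without one. The table holds no expression level, so the shares were not compared among genes of equal expression.

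**Figure D1:**
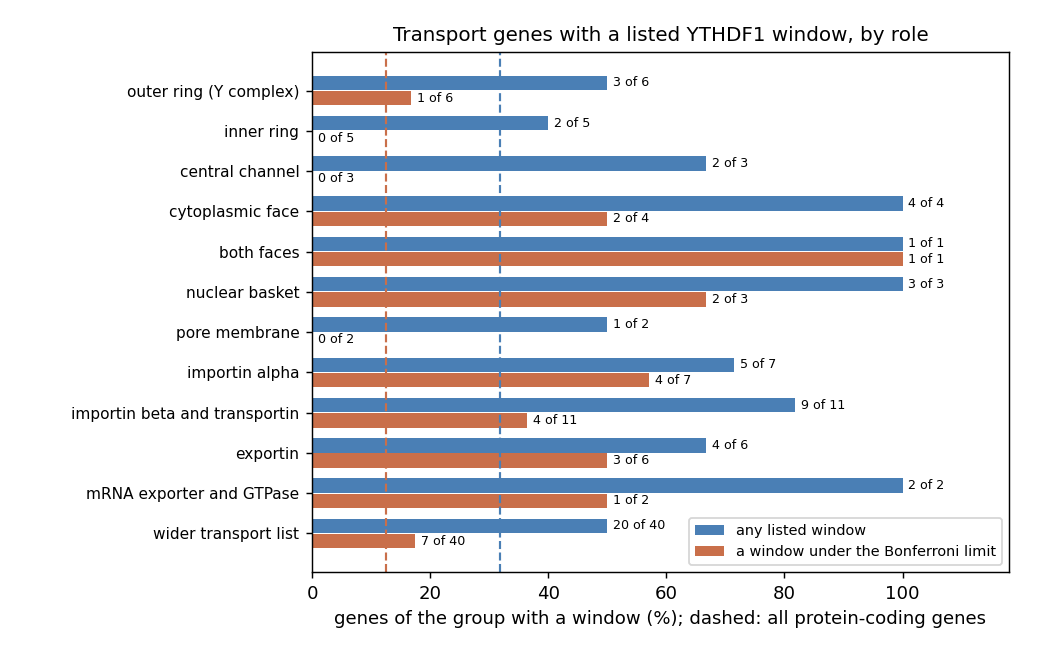
Share of each group of transport genes with any listed window (blue) and with a window under the Bonferroni limit (orange), in percent of the genes of the group, with counts beside the bars. Dashed lines mark all protein-coding genes, 31.8% and 12.5%; all 4 genes of the cytoplasmic face and all 3 of the basket had a window, against 2 of 5 in the inner ring.

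A second list held 40 annotated transport genes that the symbols above miss. Of these, 20 (50%) had a window, against 31.8% of all protein-coding genes. The stricter rules left 13 (32.5%) by q-value, 12 (30%) by signal value and 7 (17.5%) by the Bonferroni limit. Over all protein-coding genes those rules left 21.2%, 22.0% and 12.5%. Among pore proteins under other symbols 6 of 9 had a window. AHCTF1, which anchors the pore scaffold to chromatin, reached a signal value of 4.45 with 9 listed windows, higher than any gene of the first list, while GLE1, an mRNA export factor at the cytoplasmic face, reached 2.58. NDC1, RAE1, POM121C and POM121 had strongest windows at 2.25, 1.83, 1.82 and 1.80, and SEH1L, SEC13 and AAAS had no listed window. POM121 and POM121C are near-identical copies, so the division of their windows is uncertain.

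In the RAN cycle and among receptors under other symbols, 7 of 11 genes had a window. RCC1, the exchange factor that loads RAN with GTP in the nucleus, had 9 listed windows with a strongest value of 2.85, RANGAP1, which stimulates hydrolysis of that GTP in the cytoplasm, had 6 with 2.09, and NUTF2, which returns RAN to the nucleus, had 1 at 2.62. RANBP6, PHAX, HIKESHI and RANBP1 reached 2.78, 2.06, 1.98 and 1.59, and CSE1L, RANBP3, RANBP17 and SNUPN had none. In the mRNA export machinery 7 of 20 genes had a window, which is close to the share of all protein-coding genes, 31.8%. THOC3, ALYREF and DDX19A reached 2.81, 2.74 and 2.39, THOC5, NXT1, DDX39A and MCM3AP reached 2.27, 1.69, 1.63 and 1.53, and the other genes of that list had no window, including THOC1, THOC2 and DDX39B.

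The signal values of the transport windows lay close to those of all protein-coding windows, whereas the shares of windows passing stricter limits differed more. The median signal value was 1.91 over 122 windows, with quartiles at 1.63 and 2.27 and a range of 0.94 to 3.4, and over all protein-coding windows it was 1.83 with quartiles at 1.52 and 2.16. By the strongest window of each gene, the median was 2.39 over the 36 transport genes (quartiles 2.00 and 2.60) and 2.23 over 6679 protein-coding genes (quartiles 1.94 and 2.56). Of the 36 genes, 21 lay above the median of all protein-coding genes, 11 in the upper 25% of them and 6 in the lower 25%. The median of the transport genes was thus higher by less than the width of the middle quartiles. It was 2.25 without the transport genes that have copies in the annotation, close to the 2.23 of all protein-coding genes. Genes with copies were kept in that 2.23, so the sets were not filtered alike. In the second list the median over the 20 genes with a window was 2.17, below that of all protein-coding genes. At most 9 windows are listed for a gene, so a stronger window may be missing in genes at that limit. They were 5.56% of the 36 genes and 12.8% of all protein-coding genes, so the medians may not be affected alike. The highest value among the 36 genes was 3.4. Under the Bonferroni limit lay 30.3% of the transport windows (37) and 18.6% of all protein-coding windows. At a q-value of 0.001 or less the shares were 50.8% and 43.6%.

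**Figure D2:**
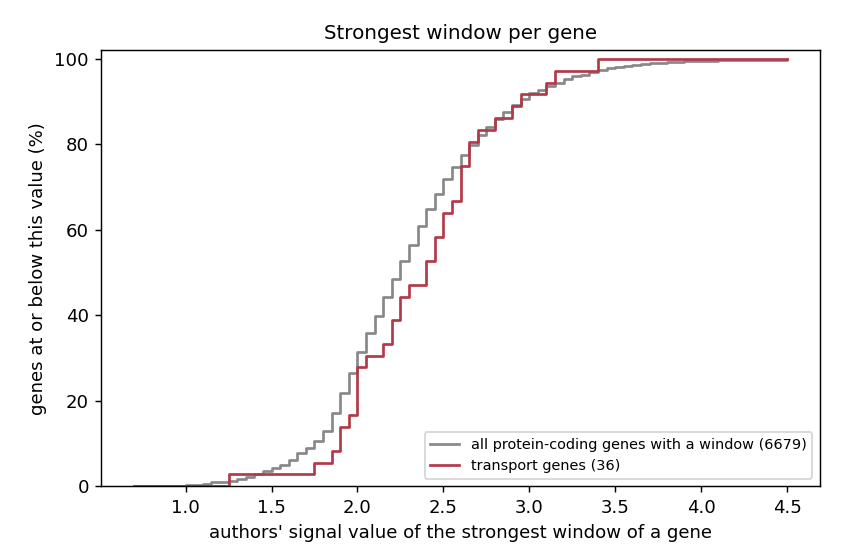
Cumulative share of genes (percent, y axis) by the authors' signal value of the strongest window (x axis) for 36 transport genes (red) and 6679 protein-coding genes with a window (grey). The red curve runs to the right of the grey one from about 1.45 to 2.6, with medians of 2.39 and 2.23 and upper quartiles of 2.60 and 2.56. Above that the curves lie close together.

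The number of windows per gene did not set these genes apart. The median was 2.5 windows in transport genes and 3 in all protein-coding genes with a window, and 30.6% of the transport genes (11) and 29.0% of all had a single window. The table lists at most 9 windows for a gene, and 2 transport genes (5.56%), KPNB1 and NUP50, were at that limit, against 12.8% of all protein-coding genes. Summed over the 36 genes, 8.12% of 1503 tested windows were listed, and over all protein-coding genes 8.60%. Windows that touched another listed window of the same gene made up 47.5% (58) in transport genes and 50.8% in all, and the 122 windows joined into 88 regions, the longest of which, in NUP50, measured 250 bp.

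**Figure D3:**
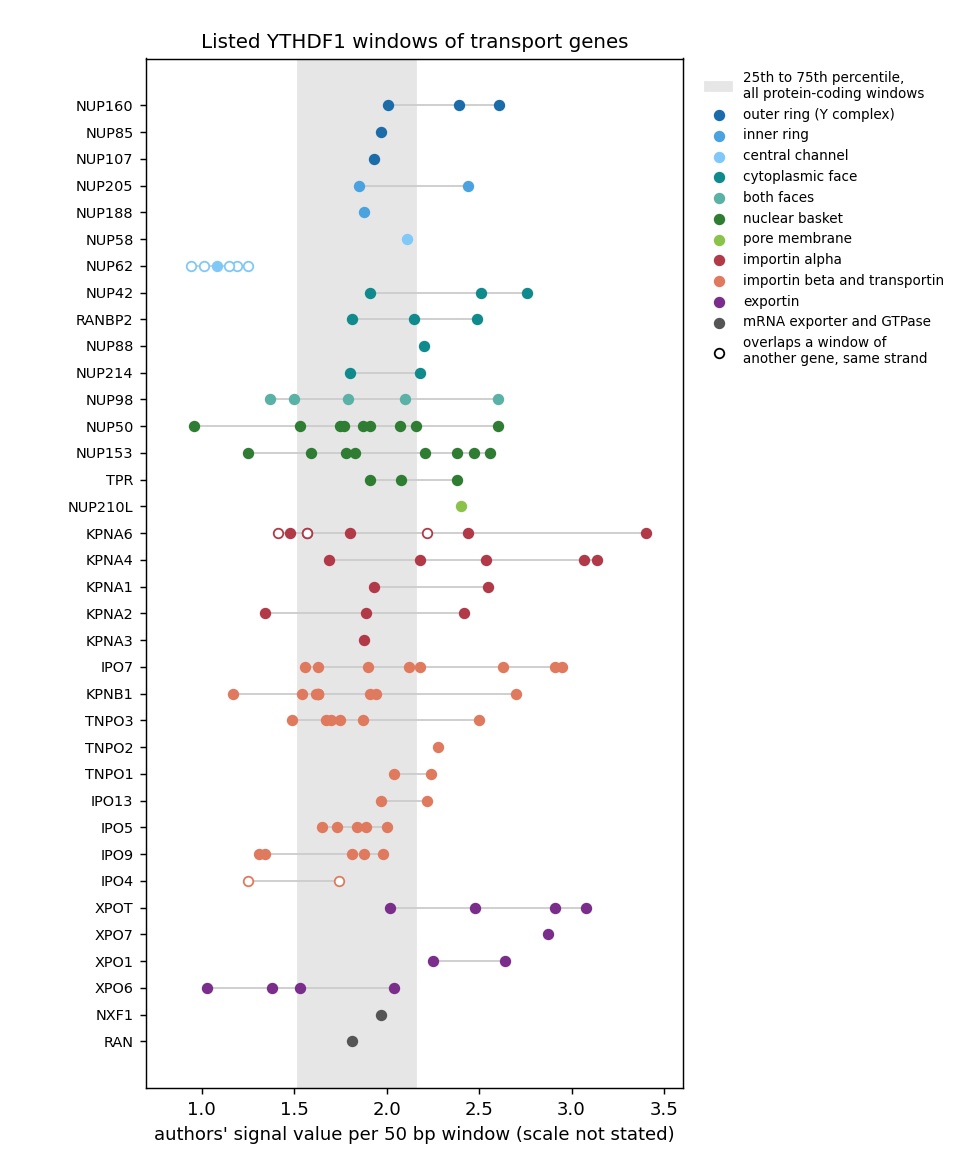
Authors' signal value (x axis, no stated scale) of every listed 50 bp window in each of 36 transport genes (rows), coloured by role, with the middle quartiles of all protein-coding windows shaded (1.52 to 2.16). Open circles share bases with a window listed for a neighbouring gene; KPNA6 holds the strongest window at 3.4, and all 6 windows of NUP62 lie between 0.94 and 1.25.

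Importin alpha proteins, the adaptors that recognise the classical nuclear localisation signal, included the 2 transport genes with the highest windows, KPNA6 and KPNA4. Of 7 genes, 5 had a window and 4 had a window under the Bonferroni limit, and KPNA5 and KPNA7 had none. The strongest value of the 5 listed genes ranged from 1.88 to 3.4 with a median of 2.55.

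KPNA6 (ENSG00000025800) had 8 listed windows. Its strongest, at chr1:32154607-32154656 and 46551 bp from the gene start, had a signal value of 3.4 with p- and q-values listed as 0, and the adjoining window had 2.44 with a q-value of 1.6e-06. Further along, the windows had values of 1.80, 1.48, 1.41, 1.57, 1.57 and 2.22 in the order of transcription. The last 4 of these overlap windows of the long noncoding RNA AL049795.2 on the same strand and cannot be assigned to 1 of both genes, whereas the strongest window overlaps no other listed gene.

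KPNA4 (ENSG00000186432) had 5 windows on chromosome 3. A window 264 bp from the start had a value of 1.69, and 4 windows that lay 50364 to 50564 bp from the start had 2.54, 3.07, 3.14 and 2.18 in the order of transcription. Both windows above 3 had q-values of 2e-14 or less, and between them lay a single window that is not listed. KPNA3, a close relative of KPNA4, had 1 window 162 bp from the start with a value of 1.88. KPNA2 had 3 windows with 1.89 at the start (the stretch shown above), 2.42 at 1674 bp and 1.34 at 8124 bp, and KPNA1 had 2 with 2.55 at 18387 bp and 1.93 at 88287 bp. In this family the strongest window lay beyond 500 bp of the start in KPNA1, KPNA2, KPNA4 and KPNA6, and within it in KPNA3.

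Importin beta proteins and transportins bind the pore repeats and carry cargo either directly or through an adaptor. Of 11 genes, 9 had a window and 4 had one under the Bonferroni limit, and IPO8 and IPO11 had none. IPO7 (ENSG00000205339), which imports ribosomal proteins among other cargo, had the strongest, with 8 windows in 4 places. Over the first 150 bp of the gene (chr11:9384653-9384802) the values were 2.63, 2.95 and 2.91, with q-values of 9.37e-09, 0 and 0 as listed. Further in, 2 pairs of adjoining windows, 23851 and 25301 bp from the start, had 1.90 and 1.56, then 2.18 and 2.12, and a last window 44151 bp from the start had 1.63. The 3 windows at the start were thus higher than the other 5. IPO8, the closest relative of IPO7, had no listed window.

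KPNB1 (ENSG00000108424) encodes importin beta, the partner of importin alpha, and had 9 listed windows of 46 tested. Its strongest, 2.7 with a q-value of 9.05e-12, lay 6958 bp from the start at chr17:47656877-47656926 and was followed by adjoining windows with 1.62 and 1.94. A pair 2808 bp from the start had 1.91 and 1.17. Within 500 bp of the start the values were 1.63 and 1.54, and 2 isolated windows 15158 and 20858 bp from the start had 1.63 each. The 3 windows at 1.63 also have the same p-value, 0.004925, so they hold the same score at separate places. The order of q-values in KPNB1 had no skipped place, so the 9 windows may be all that passed.

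The other members of the family had windows of middling strength. TNPO3, which imports serine/arginine-rich splicing factors, had 6 windows, 5 of which lay 1213 to 1463 bp from the annotated start with values from 1.49 to 2.50, and 1 further in had 1.67. TNPO2 had a single window at 2.28 and TNPO1 had 2, at 2.04 and 2.24. IPO13 had a pair of adjoining windows at 2.22 and 1.97, IPO5 had 5 from 1.65 to 2.00, and IPO9 had 5 from 1.31 to 1.98, of which 3 adjoined each other 43 bp from the start. Both windows of IPO4, at 1.25 and 1.74, overlap windows of AL136295.4, a protein-coding gene on the same strand.

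Exportins bind cargo together with RAN loaded with GTP. Of 6 genes, 4 had a window and 3 had one under the Bonferroni limit, and XPO4 and XPO5 had none. XPOT (ENSG00000184575), the exporter of tRNA, had 4 windows, all within 500 bp of the start. Their values were 2.02, 2.48, 2.91 and 3.08 in the order of transcription, the last 3 adjoining each other at chr12:64404643-64404792, with q-values of 0.000666, 4.98e-09, 2.78e-15 and 2.78e-15. The last 2 q-values rest on p-values near the limit of numeric precision, so their size is not exact. Each window was stronger than the one before it. XPO7 (ENSG00000130227) had a single window with a value of 2.87 and a q-value of 1.3e-09, 65051 bp from the start, where no neighbouring window was listed.

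XPO1, the main exporter of proteins with a leucine-rich signal, had 2.64 at 413 bp and 2.25 at 4763 bp. XPO6, which exports actin, had 4 windows with 2.04 at 136 bp, 1.03 and 1.53 from 55736 bp, and 1.38 at 105486 bp. XPO6 has as many windows as XPOT, but its strongest value, 2.04, lies near the weakest of XPOT, 2.02.

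NXF1 and RAN each had 1 window. NXF1 (ENSG00000162231), the exporter of bulk mRNA, had a value of 1.97 with a q-value of 0.01076 at chr11:62803824-62803873, 1567 bp from the start. RAN (ENSG00000132341) had 1.81 at chr12:130874588-130874637, 2522 bp from the start, with a q-value of 3.33e-08, and this window passed the Bonferroni limit although its score was below the 1.83 median of all protein-coding windows. Score and q-value therefore do not order the windows alike, as NXF1 had the higher score and the larger q-value. RAN has 9 pseudogenes in the annotation, and whether reads from them were counted is not given in the sources used here.

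In the nuclear basket, which receives export cargo on the nuclear side, all 3 genes had a window, and in each of them the strongest window lay within 500 bp of the start. The strongest values were 2.60 in NUP50, 2.56 in NUP153 and 2.38 in TPR. NUP50 (ENSG00000093000), a mobile basket protein that also binds importin alpha, had 9 listed windows of 84 tested. Over 250 bp (chr22:45164026-45164275, from 101 bp past the start) 5 adjoining windows had values of 1.53, 1.75, 1.87, 2.16 and 2.60, each above the one before it, and the last had a q-value of 4.66e-14. The other 4 windows had 1.91 and 1.77 from 7101 bp, 2.07 at 12051 bp and 0.96 at 22101 bp. The order of q-values skips 2 places in NUP50, so 2 further windows passed and are not listed.

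NUP153, which anchors the basket to the ring, had 8 windows. From 140 to 540 bp past the start the values were 2.47, 1.78, 1.83, 2.56, 2.38 and 2.21 in the order of transcription, and the strongest had a q-value of 2.71e-14. A pair 18340 bp in had 1.25 and 1.59, below each of the 6 near the start. TPR (ENSG00000047410), the filament of the basket, had 3 windows, all within 500 bp of the start, with 1.91 at 51 bp, 2.08 at 151 bp and 2.38 at 251 bp. The windows of TPR do not adjoin, and the strongest had a q-value of 2.52e-05.

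On the cytoplasmic face, where mRNA is released and RAN is recycled, all 4 genes had a window and 2 had one under the Bonferroni limit. NUP42, which binds GLE1, had the strongest, with 1.91 and 2.76 in adjoining windows over the annotated start (chr7:23182042-23182141, covering the stretch shown above) and 2.51 at 3044 bp. RANBP2 (ENSG00000153201), a large filament protein that binds RAN and has SUMO ligase activity, had 3 windows with 2.49 at chr2:108731383-108731432, 2.15 at chr2:108735583-108735632 and 1.81 at chr2:108763933-108763982. The q-value of the strongest was 1.37e-06. RANBP2 shares long stretches with the RGPD genes, of which 7 are annotated and 0 had a listed window, so its windows are uncertain where the authors' counting could divide reads among copies. NUP214 had 2.18 at 51 bp and 1.80 at 72001 bp, and NUP88, its partner, had 1 window with 2.20 at 199 bp.

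NUP98, found on both faces of the pore and made from a precursor with NUP96, had 5 windows. The strongest, 2.60 with a q-value of 3.1e-08, lay 15421 bp from the start, and the others had 1.5, 1.79, 2.10 and 1.37 in the order of transcription. NUP98 had no window within 500 bp of the start.

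In the outer ring, or Y complex, 3 of 6 genes had a window: NUP160 had 2.39 and 2.61 in adjoining windows at chr11:47848238-47848337, from 207 bp past the start of its RefSeq interval, and 2.01 at 607 bp, NUP85 had 1 at 1.97 and NUP107 had 1 at 1.93. The start shown for NUP160 above lies inside the interval, downstream of its first base. NUP133, NUP37 and NUP43 had none. In the inner ring 2 of 5 genes had a window, NUP205 with 1.85 at 15801 bp and 2.44 at 19101 bp and NUP188 with 1.88, and NUP93, NUP155 and NUP35 had none. No inner ring gene passed the Bonferroni limit, against 12.5% of all protein-coding genes, and with 5 genes this count carries little weight.

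In the central channel NUP58 had 1 window at 2.11 and NUP54 had none. NUP62, the channel protein with the best known repeats, had 6 windows with values of 1.25 near the start, then 1.08, 1.01, 0.94, 1.19 and 1.15 between 20079 and 21229 bp in. The strongest value of NUP62, 1.25, was the lowest strongest value among the 36 genes. Of the 6, 5 overlap windows of IL4I1 or AC011452.1 on the same strand, so the values cannot be given to NUP62 alone. In the pore membrane NUP210L had 1 window at 2.40 and its relative NUP210 had none. NUP62CL, matched by its symbol, had none.

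Position was measured from the annotated RefSeq interval along the genome, introns included, because exon annotation was not used here. A window within 500 bp of the start occurred in 17 of the 36 genes (47.2%) and in 43.9% of 6148 protein-coding genes that could be placed. All listed windows of KPNA3, NUP88, TPR and XPOT were that close, 13 genes had windows both within and beyond that distance, and 19 genes had windows only beyond it. By windows, the shares were 30.3% (37 of 122) and 24.5%. Windows close to the start had a median signal value of 2.08 in transport genes and 1.99 in all, and windows further in had 1.88 and 1.79. The stronger score near the start was therefore of the same size in both sets. The strongest window was near the start in 14 of 36 genes (38.9%) and in 31.2% of all genes.

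**Figure D4:**
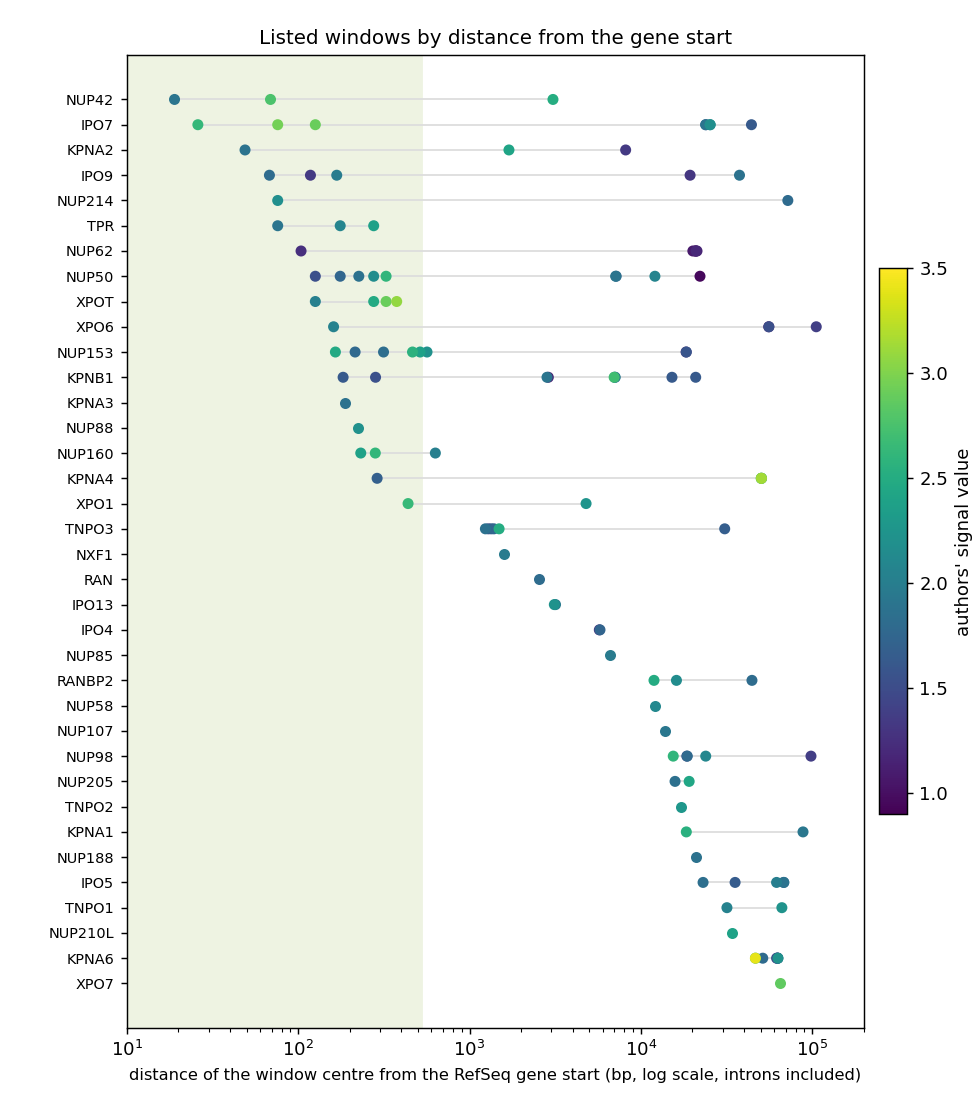
Distance of each window centre from the RefSeq gene start (x axis, bp, log scale, introns included) in 36 transport genes (rows, sorted by their nearest window), coloured by the authors' signal value, with the first 500 bp shaded. In 17 genes a window lies in the shaded range, and the strongest windows of KPNA6 (3.4), KPNA4 (3.14) and XPO7 (2.87) lie 46551 bp or more downstream.

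At the other end of the genes, none of 35 transport genes had a listed window within 1000 bp of the annotated end, and 9.95% of 6138 protein-coding genes did. By windows the shares were 0 of 119 and 4.06%. RANBP2 was left out here because its annotated interval spans 1122820 bp. The nearest listed windows lay 1401 bp from the end in NUP62, 1942 bp in NUP50, 2388 bp in IPO5, 2801 bp in IPO4, 2946 bp in KPNA2 and 3041 bp in RAN. At most 9 windows are listed for a gene, so genes at that limit may have passing windows that are missing here. In NUP50, 2 further windows passed without being listed, and their place is not given. The listed windows of each transport gene are numbered by rising genomic coordinate. NUP50 kept a window with a q-value of 0.04842, so its weakest were not the ones dropped. If the highest coordinates were dropped, the 2 lie less than 1942 bp from the end, which was not tested. Such a loss would hit the start of a minus-strand gene and the end of any other. The limit was reached by 12.8% of all protein-coding genes, so shares by position may not be affected alike in both sets. With the interval cut into 3 equal parts, 61.3%, 12.6% and 26.1% of the transport windows fell in the first, middle and last part, and 50.1%, 20.8% and 29.0% of all protein-coding windows. Windows of long 3′ exons can lie further than 1000 bp from the end, so these distances do not tell coding sequence from untranslated region.

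**Figure D5:**
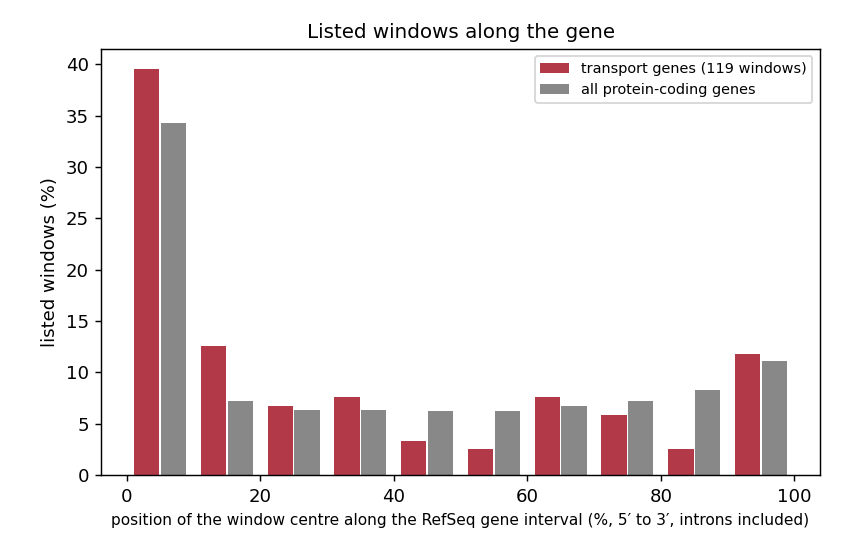
Share of listed windows (percent, y axis) in each 10% of the RefSeq gene interval (x axis, percent from the 5′ to the 3′ end, introns included) for 119 windows of transport genes (red) and for all protein-coding genes (grey). The first 10% of the interval holds 39.5% and 34.3% of the windows, and the last 10% holds 11.8% and 11.1%.

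Some members share sequence or position with other genes. Of the 36 genes, 12 have a pseudogene or an RGPD copy in the annotation, with 4 for NUP50, 3 each for KPNA2, TNPO1 and XPOT, 2 each for IPO7 and TNPO3, and 1 each for IPO5, KPNA4, KPNB1 and NUP58 beside those of RAN and RANBP2. Without these genes 24 of 36 remain. In all, 11 transport windows (9.02%) share bases with a same-strand window listed for another gene, all of them in KPNA6, IPO4 and NUP62, and the share over all protein-coding windows was 10.0%.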

How the data were processed

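RIP-seq of 2 IP-YTHDF1 and 2 Input libraries from SNU638 cells was analysed from the authors' deposited peak table. Per the methods, RNA was precipitated with an anti-FLAG antibody and libraries were stranded and depleted of ribosomal RNA. STAR 2.7.3a and GRCh38 are named in the submitters' processing notes. The peak caller and the treatment of multiply mapped reads are not given in the sources used here. The authors deposited a signal value and a rank, both treated as a score, and a p-value and q-value per 50 bp window, with no library told apart, so 0 columns per library were left unused. The q-values were taken as adjusted by Benjamini-Hochberg within each gene. For each window with a p-value above 1e-14 the q-value was multiplied by the rank of its p-value in the gene and divided by that p-value. Smaller p-values were treated as being at the limit of numeric precision, so q-values that rest on them are not exact in size. The largest result in a gene gave a lower bound on its tested windows. Counts of tested windows above are therefore minimum counts, and the listed percentages of them are upper limits.

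Of 26820 rows, 1 repeated row was dropped. In all, 6370 of 6674 protein-coding symbols matched RefSeq (20056 genes), and 91.8% of protein-coding windows were placed in the matching interval. Positions count from 1. Shares, medians and positions are descriptions, and no test was run, because there is 1 value per window. The members, the lists and the choice of named genes (every member, with window values for KPNB1, NXF1, RANBP2, TPR, RAN, the 5 strongest genes and the strongest and most-listed gene of each role) were made with earlier results of these data known. Only the step that derives the tested windows of a gene and the rank of its last listed window was tested on simulated data. Python 3.11.15, pandas 2.3.3 and NumPy 2.4.6 were used.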

Additional observations from a re-analysis of the deposited data

How the results depend on the processing

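The count of 36 transport genes with a window went to 28 at a q-value of at most 0.001, 27 at a signal value of at least 2, 35 without windows shared with another gene, 24 without genes that have copies, and 18 under the Bonferroni limit, and stayed at 36 with Benjamini-Hochberg adjustment over the windows of all listed genes. The count of 122 windows went to 62 at a q-value of at most 0.001, 52 at a signal value of at least 2, 37 under the Bonferroni limit, 112 with Benjamini-Hochberg adjustment and 88 as joined regions. The second list of 20 genes went to 13 by that q-value and 12 by that signal value. These stricter limits keep fewer windows by construction. The median strongest signal value of 2.39 ranged from 2.00 (mean or median of a gene's windows) to 2.50 (q-value of at most 0.001) over 6 alternatives, 1 of which (2.40, without shared windows) was chosen after seeing the data. It was 2.25 without genes that have copies, against 2.23 over all protein-coding genes with theirs kept, and 2.33 without genes at the limit of 9 windows. For the 2.33, all protein-coding genes were not filtered alike. For transport genes and all protein-coding genes the median was 2.50 and 2.42 at that q-value, and 2.00 and 1.91 as the median of a gene's windows. No paired analysis was possible because every window carries a single score for all libraries together, so no replicate could be left out either. Depth per library is unknown, and a gene without a listed window is not shown to be unbound.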

Other observations

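The divergent noncoding transcript NUP50-DT (ENSG00000226328), on the minus strand of chromosome 22 opposite NUP50, had 5 listed windows. Of these, 4 adjoined each other at chr22:45163571-45163770, upstream of the first windows of NUP50 at chr22:45164026-45164275, with signal values of 1.71, 1.83, 2.17 and 2.17, and 1 lay at chr22:45134571-45134620 with 1.86.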
